A study of Mus musculus with 5 samples.

Results

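The maturation of wild-type ventricle was described by comparing *Celf1* +/+ mice at postnatal day 38 (PN38) with *Celf1* +/+ mice at postnatal day 3 (PN3). The comparison rests on 3 of the 5 RNA-seq libraries of the series, 1 at PN38 and 2 at PN3. The other 2 are *Celf1* −/− ventricles at PN3, which carry a constitutive deletion of the RNA-binding protein Celf1. They enter the scaling of the counts and the measure of the spread between libraries, and part of the published values used to name genes. For some genes their values are given beside those of the wild type. All 5 are polyadenylated RNA of male mice on a mixed 129v/BL6 strain, from ventricles freed of blood and atria. The genes described are the 12816, of 28416 genes in the deposited values, with at least 1 FPKM (fragments scaled by transcript length and by the size of the library) either at PN38 or in each of the 2 wild-type libraries at PN3. A gene under 1 FPKM at PN38 passed this filter only through PN3, and so had to be lower by FPKM at PN38. A gene under 1 FPKM in both wild-type libraries at PN3 passed only through PN38, and so had to be higher there. PN38 has 1 library, so nothing is known of the spread between mice at that age. The tests take that age to vary as the 4 PN3 libraries do. The sources used here do not say how many animals stand behind a library, and the p-values measure only the spread between the PN3 libraries, which the study describes as biological replicates.

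The mouse heart is born with cardiomyocytes that still divide, burn much glucose and lactate and build their sarcomeres partly from fetal and slow skeletal muscle proteins. In the weeks after birth these cells leave the cell cycle and enlarge, turn to fatty acids as fuel and take up the adult set of contractile, calcium handling and channel proteins. Fetal growth genes are turned down in many organs over the same time, and the matrix around the cells is remodelled.

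Genes are numbered in the deposited values. A name was given where the FPKM values of a gene matched exactly those printed with a symbol in the gene expression supplement of the study, which named 2612 of the 12816 genes. That supplement has 2 sheets, and the part of its developmental sheet that was read lists decreases with age only, the strongest of them. A gene named by that sheet alone, as 1668 were, therefore had to be lower at PN38, and far enough to be listed. Its direction is a description. The counts of falls and the medians of lists that hold such genes lean to decreases by the naming. The sheet that compares genotypes at PN3 has 961 entries, and it named 944 of the tested genes. These were not chosen by age, although that sheet uses the same *Celf1* +/+ libraries at PN3. A gene listed there for a high or a low wild-type value at PN3 would lean to a fall or a rise with age. The shares of these genes are therefore not free of selection. Counts are given apart for these 944 genes below. Genes that rose with age could be named only by the genotype sheet, and 831 of the 939 genes called higher have no name here.

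The libraries differed in how their counts were spread over genes. Total expected counts, the fragments assigned to genes, were 108044284 at PN38 and 122715683 to 139769909 at PN3. The 100 most abundant genes took 34.9% of the counts at PN38 and 23.2% to 24.3% in the PN3 libraries. Of the 100 most abundant genes at PN38, 29 were called higher with age and 0 were called lower, beside 7.33% and 11.4% of all genes tested. Of the 100 most abundant in each *Celf1* +/+ library at PN3, 9 were called higher and 15 lower. A choice by the level at 1 age favours genes that are high at that age. Because the counts were spread differently over genes, each change is given on 2 scales. FPKM relates a gene to all counts of its library, and the TMM method relates it to the bulk of the genes. The median gene had a log2 change (PN38 over PN3) of −0.46 by FPKM and of −0.02 by TMM-normalized counts. In all, 2698 genes were lower by FPKM but higher by TMM-normalized counts, and 1 gene was the reverse. The median TMM log2 change was −0.15 for genes with a mean under 3 FPKM and 0.50 for genes of at least 100 FPKM.

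**Figure D1:**
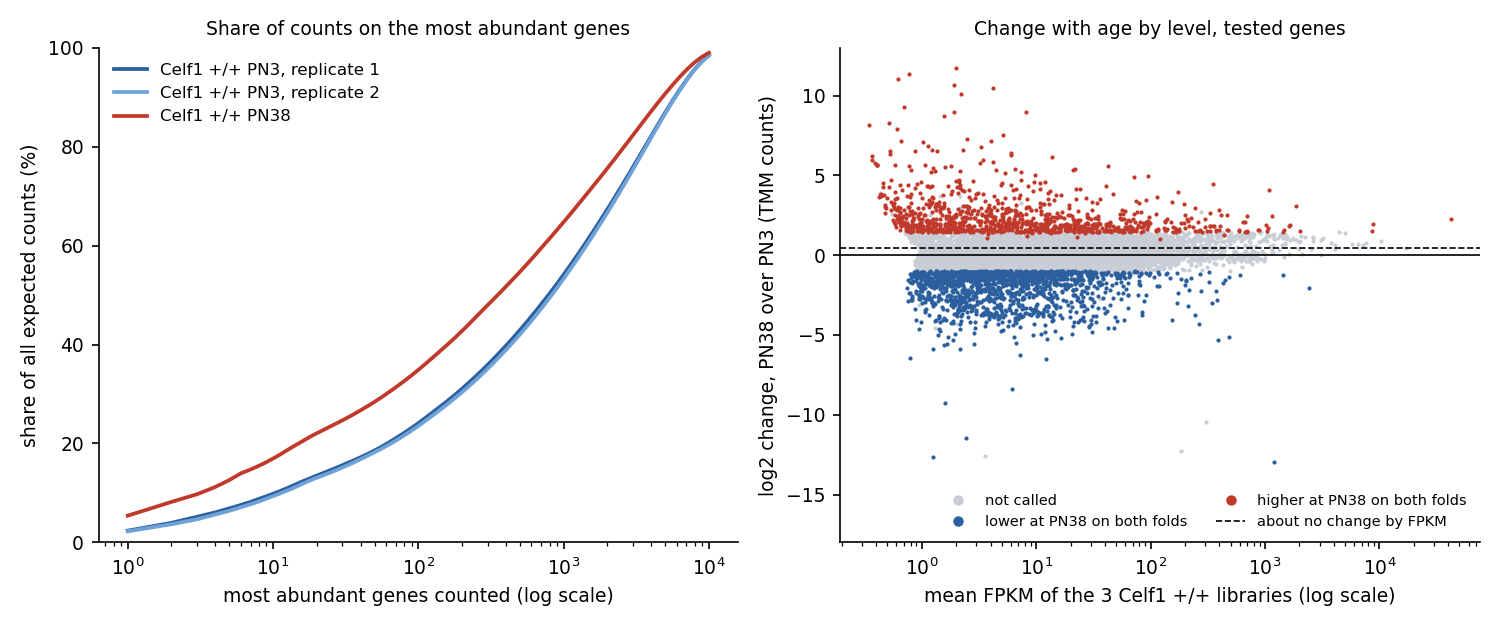
The left panel plots the share of all expected counts (%) on the most abundant genes, counted from the top on a log axis, with 1 line per *Celf1* +/+ library. The right panel plots, for the tested genes, the TMM log2 change (PN38 over PN3) against mean FPKM on a log axis, with called genes in colour. The PN38 line lies above both PN3 lines, with 34.9% of counts on 100 genes, and the dashed line marks about where a gene unchanged by FPKM falls.

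Of the 12816 genes, 8150 (63.6%) had a Benjamini-Hochberg adjusted p of at most 0.05 in the quasi-likelihood test of edgeR. A gene was called where it also differed by at least 2.0-fold. With the fold from FPKM, 2866 genes (22.4%) were lower and 939 (7.33%) were higher at PN38, and with the fold from TMM-normalized counts 1464 (11.4%) were lower and 1642 (12.8%) were higher. Below, a gene is said to have fallen or risen only where both folds passed, which held for 1460 genes lower (11.4%) and 939 genes higher (7.33%), 18.7% of the genes tested. Of these, 264 fell and 147 rose by at least 8-fold on both scales. Among the 944 genes named by the genotype sheet, 682 (72.2%) had an adjusted p of at most 0.05. Of these genes 354 (37.5%) were lower and 108 (11.4%) higher with the fold from FPKM, and 290 (30.7%) were lower and 158 (16.7%) higher with that from TMM. By both folds 289 fell (30.6%) and 108 rose (11.4%), 42.1% in all, and the members of each list below are read against these shares. The median log2 change of the 944 genes was −0.66 by FPKM and −0.22 by TMM. The genes that fell held 1.98% of all counts at PN38 and 9.25% and 9.81% in the 2 *Celf1* +/+ libraries at PN3. The genes that rose held 20.4% at PN38 and 7.15% and 6.65% at PN3, of which the named ones made up 2.08% at PN38 and 0.628% and 0.598% at PN3.

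Among named genes that reached 10 FPKM at one of the ages, the largest falls on the TMM scale were those of Tnni1, Vash2, Myh7, Fam70a and Cthrc1. Tnni1 (chromosome 1 of mm9 from 137679642 to 137707566, plus strand), the slow skeletal troponin I of the fetal heart, measured 0.16 FPKM at PN38 and 1607 and 2021 FPKM at PN3. The PN38 value stands for 16 expected counts, in a library of 108044284. Vash2, a secreted vasohibin, measured 0.11 FPKM at PN38 and 9.83 and 11.96 FPKM at PN3. Fam70a measured 0.35 FPKM at PN38 and 18.8 and 18.0 FPKM at PN3. Cthrc1, a protein secreted by matrix-forming cells, measured 0.50 FPKM at PN38 and 24.1 and 25.4 FPKM at PN3. In each of these the PN38 library lay far below both PN3 libraries. In this bulk tissue fewer cells of a type and less RNA per cell cannot be told apart.

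By the same limit, the largest rises of named genes were those of Art1, Ces1d, Xirp2, Ifi27l2a and Lrtm1. Art1 (chromosome 7 of mm9 from 109250257 to 109259662, plus strand), an ADP-ribosyltransferase of the muscle cell surface, measured 121 FPKM at PN38 and 3.11 and 3.96 FPKM at PN3. Ces1d, a carboxylesterase that splits lipid esters, measured 61.7 FPKM at PN38 and 1.13 and 2.82 FPKM at PN3. It belongs to a family of close gene copies, between which the counting may have split fragments. Lrtm1, a leucine-rich repeat membrane protein, measured 86.1 FPKM at PN38 and 10.6 and 10.9 FPKM at PN3. For Art1 the TMM log2 change was 5.56 ± 0.14 (SE, adjusted p = 0.000175 in edgeR's quasi-likelihood test), for Ces1d 5.42 ± 0.52 (adjusted p = 0.00081) and for Lrtm1 3.54 ± 0.09 (adjusted p = 0.000175). The 2 wild-type PN3 libraries differed from each other by more than 2.0-fold for Ces1d, and hardly at all for Lrtm1. The log2 change of Ces1d was 4.91 without replicate 1 and 6.20 without replicate 2 of *Celf1* +/+ at PN3.

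Some contractile genes of the fetal heart and of slow and smooth muscle fell far, while most were not called. Of 25 tested members of this list 10 fell, 1 rose and 14 were not called, with a median log2 change of −1.34 by FPKM and −0.89 by TMM, against −0.46 and −0.02 over all tested genes. The sheet of decreases alone named 12 members, of which 8 fell. Among the 13 members named by the genotype sheet 2 fell and 1 rose, and their medians of −0.66 and −0.21 were about those of all genes that sheet named. Myh7, the slow myosin heavy chain that the mouse ventricle uses before birth, measured 11.8 FPKM at PN38 and 456 and 699 FPKM at PN3 (chromosome 14 of mm9 from 55589525 to 55613471, minus strand). Its mean decreased 48.8-fold in FPKM, and its TMM log2 change was −5.29 ± 0.61 (adjusted p = 0.00138, edgeR). Its FPKM ranged from 456 to 1039 over the 4 PN3 libraries, all far above PN38. Myl9, a regulatory light chain of smooth muscle and non-muscle myosin, fell from 463 and 402 FPKM at PN3 to 99.3 FPKM at PN38. The smooth muscle actin Acta2 stayed among the most abundant of the list, with 400 FPKM at PN38 and 420 and 413 FPKM at PN3. Its log2 change was −0.06 by FPKM and 0.39 by TMM, so the scaling sets its sign. Myl1, an essential light chain of fast skeletal and fetal atrial muscle, was the member that rose, from 7.19 and 12.95 FPKM at PN3 to 49.9 FPKM at PN38.

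**Figure D2:**
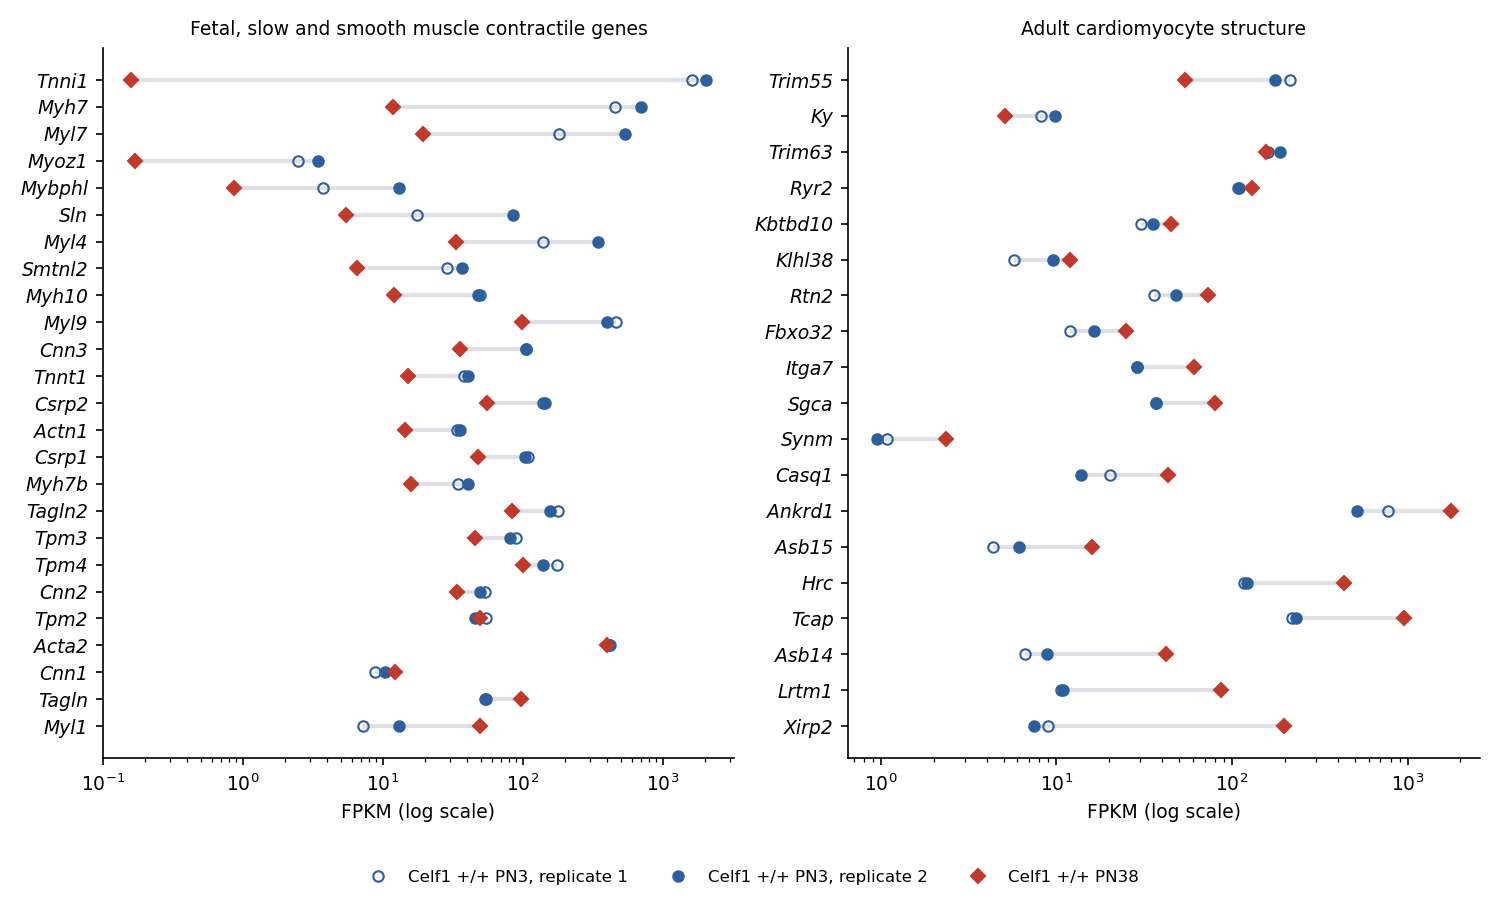
FPKM (log axis) of each tested member of 2 gene lists in the *Celf1* +/+ libraries, with circles for PN3 and diamonds for PN38, ordered by TMM log2 change. Tnni1 lies at 0.16 FPKM at PN38 against 1607 and 2021 at PN3, and Xirp2 at 199 FPKM against 8.99 and 7.48.

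Genes for the adult cardiomyocyte moved the other way. Of 19 tested members 11 rose, 1 fell and 7 were not called, and their medians were 1.12 by FPKM and 1.56 by TMM. Of these, 18 were named by the genotype sheet, and 11 of the 18 rose and 0 fell, beside 11.4% and 30.6% of all genes that sheet named. Ankrd1, a titin-binding protein of the sarcomere and nucleus, was the most abundant, at 1768 FPKM at PN38 and 777 and 512 FPKM at PN3. Tcap, which caps titin at the Z-disc, measured 953 FPKM at PN38 and 220.0 and 231 FPKM at PN3, a 4.23-fold increase (TMM log2 change 2.53 ± 0.07, adjusted p = 0.000175, edgeR). Xirp2, an actin-binding protein of the intercalated disc, measured 199 FPKM at PN38 and 8.99 and 7.48 FPKM at PN3, a 24.1-fold increase. Trim55, a ubiquitin ligase of the sarcomere, was the member that fell, to 54.2 FPKM from 214 and 176 FPKM, and it was named by the sheet of decreases alone. Ankrd1, Tcap and the calcium release channel Ryr2 each exceeded 100 FPKM in the 3 wild-type libraries, which fits the labelled tissue. Many other defining genes of the ventricle could not be named and were not analysed here.

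Atrial genes were followed because the atria were removed by hand. Myl7, the atrial regulatory light chain, measured 19.3 FPKM at PN38, 181 FPKM in replicate 1 and 539 FPKM in replicate 2 of *Celf1* +/+ at PN3. Both *Celf1* −/− libraries lay in that range or above, at 416 and 665 FPKM. Myl4, the atrial and fetal essential light chain, measured 33.3 FPKM at PN38 and 139 and 345 FPKM in *Celf1* +/+ at PN3. Sln, a small inhibitor of the calcium pump found in atria, measured 5.47 FPKM at PN38 and 17.7 and 85.3 FPKM at PN3. Mybphl, an atrial myosin-binding protein, measured 0.86 FPKM at PN38 and 3.73 and 13 FPKM at PN3. All 4 were higher in replicate 2 than in replicate 1 at both genotypes, and PN38 lay below every PN3 library. Myl7, Myl4 and Mybphl fell, whereas Sln missed the threshold, with a TMM log2 change of −2.75 ± 1.14 (adjusted p = 0.084, edgeR). Without replicate 2 of *Celf1* +/+ the log2 change was −2.78 for Myl7, −1.62 for Myl4, −1.68 for Mybphl and −1.24 for Sln.

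Of the 12 tested atrial members 7 fell in all, among them Dkk3, a secreted Wnt modulator (8.04 FPKM against 23.7 and 36.8), Gja5, the connexin of atria and conduction fibres (3.31 against 9.95 and 14.3), and Nr2f1, a nuclear receptor (0.99 against 2.46 and 3.24, not called without replicate 2 of *Celf1* +/+, where its log2 change was −0.88). All 7 were named by the sheet of decreases alone. Nr2f2, a related nuclear receptor, was not called at 2.18 FPKM against 4.65 and 5.56. None of the 3 members named by the genotype sheet fell, and Myl1, described above, rose. Nppa, which encodes atrial natriuretic peptide and is made by the fetal ventricle as well, measured 912 FPKM at PN38 and 559 and 453 FPKM at PN3, a TMM log2 change of 1.30 and an FPKM log2 change of 0.85, which is under 2.0-fold. Clec3b, a plasminogen-binding lectin, measured 63.5 FPKM at PN38 and 44.8 and 49.0 FPKM at PN3 and was not called. Myl7, Myl4, Sln and Mybphl also stand in the fetal contractile list, and the part of remaining atrial tissue in the change of that list was not tested.

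**Figure D3:**
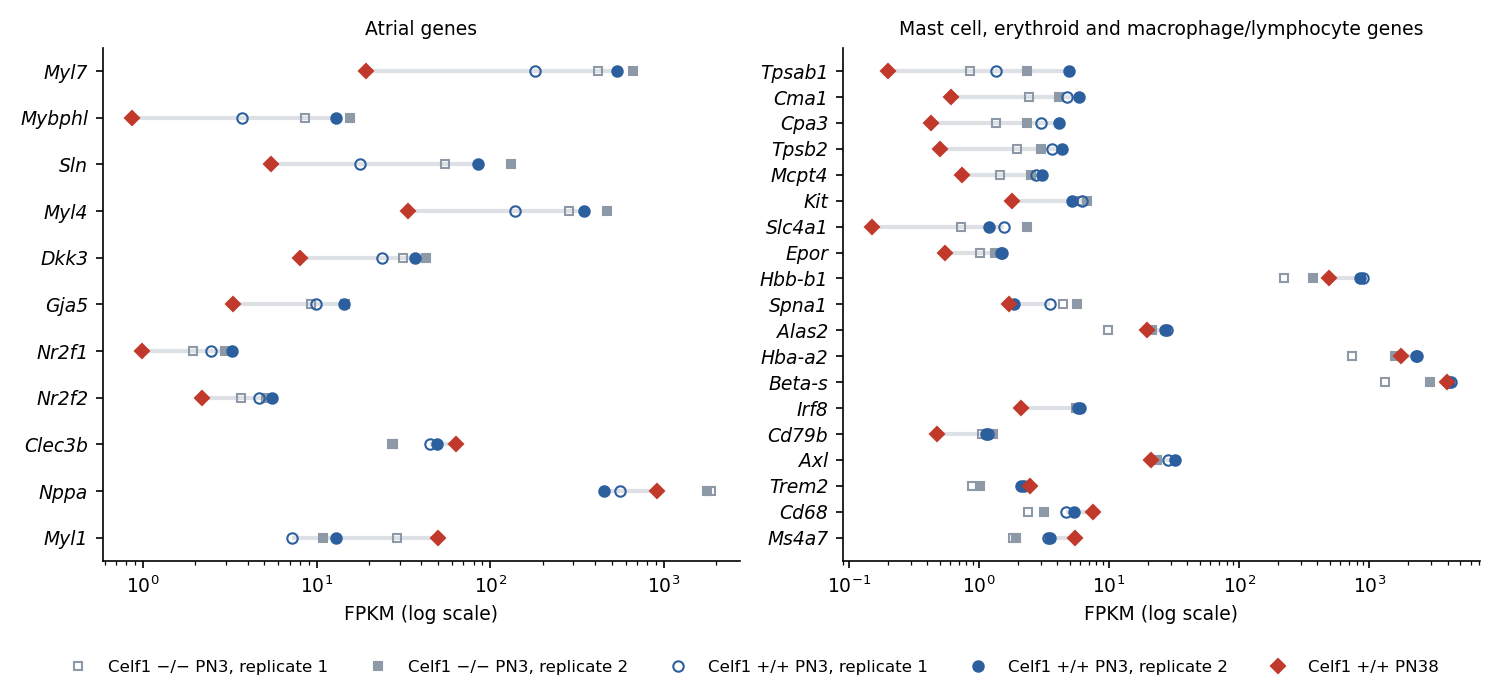
FPKM (log axis) of 11 atrial genes and of mast cell, erythroid and macrophage or lymphocyte genes in all 5 libraries, with diamonds for PN38, circles for *Celf1* +/+ and squares for *Celf1* −/− at PN3. Replicate 2 (filled) lies right of replicate 1 (open) for Myl7, Myl4, Sln and Mybphl in both genotypes, and the globin transcripts lie lowest in replicate 1 of *Celf1* −/−.

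Fuel genes split by pathway. Of 36 genes for the oxidation of fatty acids and amino acids 14 rose, 8 fell and 14 were not called, with medians of 0.34 by FPKM and 0.82 by TMM. Of the 27 named by the genotype sheet 14 rose and 2 fell, with a median of 1.37 by TMM. Phyh, the peroxisomal enzyme that starts the breakdown of phytanic acid, rose to 560 FPKM at PN38 from 222 and 208 FPKM at PN3. Acss1, the mitochondrial enzyme that activates acetate, rose 5.15-fold, to 121 FPKM from 23.8 and 23.1 FPKM. Dci, an isomerase needed to oxidize unsaturated fatty acids, measured 425 FPKM at PN38 and 279 and 317 FPKM at PN3 and was not called, with a log2 change of 0.51 by FPKM and 0.96 by TMM. Cpt1a, the liver form of the carnitine palmitoyltransferase that admits fatty acids to mitochondria, fell to 10.3 FPKM from 47.7 and 48.9 FPKM, and was singled out after its values were seen. Cpt1a was named by the sheet of decreases alone.

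Most glycolytic genes were not called. Of 16 tested members 5 fell and 0 rose, and among the 11 named by the genotype sheet 1 fell, with medians of −0.16 by FPKM and 0.29 by TMM. Ldha, which interconverts pyruvate and lactate, measured 618 FPKM at PN38 and 693 and 684 FPKM at PN3, and Pgk1, a kinase of lower glycolysis, measured 437 FPKM and 450.4 and 406 FPKM. Ldha was lower by FPKM (−0.16) and higher by TMM (0.29), with an adjusted p of 0.0902 in edgeR's test. The lactate carrier Slc16a1 measured 70.02 FPKM at PN38 and 43.5 and 35.2 FPKM at PN3, a TMM log2 change of 1.27 but an FPKM log2 change of 0.83. Aldoc, the aldolase isoform of brain, fell to 0.07 FPKM from 4.04 and 4.55 FPKM.

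Most genes that make cholesterol and fatty acids fell. Of 20 tested members 14 fell and 0 rose, and of the 14 named by the genotype sheet 8 fell and 0 rose, with medians of −1.57 by FPKM and −1.13 by TMM. The most abundant members at PN3 were the stearoyl-CoA desaturases Scd2, which fell to 10.1 FPKM from 61.2 and 61.3 FPKM, and Scd4, which fell to 4.47 FPKM from 43.9 and 48.4 FPKM. Hsd17b12, which works in the lengthening of fatty acids, measured 18.1 FPKM at PN38 and 22.2 and 18.2 FPKM at PN3. It was not called, and its log2 change was −0.16 by FPKM and 0.28 by TMM.

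Cell division genes had the lowest median of the 26 lists. Of 44 mitotic genes 42 fell, with medians of −4.06 by FPKM and −3.62 by TMM, and of the 32 named by the genotype sheet 31 fell, beside 30.6% of all genes that sheet named. Ube2c, the ubiquitin-conjugating enzyme of the anaphase-promoting complex, measured 3.83 FPKM at PN38 and 102 and 69.7 FPKM at PN3, a 22.4-fold decrease. Ccnb1, the cyclin that starts mitosis, measured 1.04 FPKM at PN38 and 35.9 and 26.3 FPKM at PN3 (TMM log2 change −4.46 ± 0.31, adjusted p = 0.00039, edgeR). The 2 members not called were Cenpa, the centromeric histone H3 (20.9 FPKM against 60.2 and 43.7, with a log2 change of −0.86, or −0.60 without replicate 1 of *Celf1* +/+), and Bub3, a checkpoint protein (19.4 against 43.7 and 38.8). Replicate 1 of *Celf1* +/+ was the higher of the 2 libraries at PN3 in each of these genes. The summed FPKM of the 44 genes was 98.97 at PN38 and 1122 and 846 at PN3.

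Since 42 of 44 mitotic genes fell, their promoters were examined for the letters of 2 elements known from cell cycle genes. These are the CCAAT box and the 6-base core of the cell cycle homology region, TTTGAA, and neither contains the other. RefSeq promoters (GRCm38.p6, 250 bases before to 50 after the start) were matched by symbol for 35 of the 44 genes, giving 38 promoters. On either strand TTTGAA stood in 27 of the 38 promoters (71.1%), against 17.9% of all 32851 promoters, and CCAAT stood in 29 (76.3%), against 37.4%. Both stood in 24 of the 38 (63.2%), against 6.95% of all. In the DNA replication list TTTGAA stood in 7 of 38 promoters (18.4%) and in the adult cardiomyocyte list in 1 of 13 (7.69%). An E2F-type sequence, TTTGGCGC or TTTCCCGC, stood in 12 of the 38 promoters of replication genes (31.6%), in 2 of the 38 of mitotic genes (5.26%) and in 1.56% of all. These matches describe letters, and no binding was measured. Cenpa and Bub3, the 2 mitotic genes not called, carried both elements as well. For 6 fallen members with both elements, chosen from those with the highest levels at PN3, 30 bases around the TTTGAA nearest to the start are shown on the strand of the gene, with the element in capitals (TTCAAA where it lies on the other strand).
Ube2c, chr2:164769888-164769917, plus strand: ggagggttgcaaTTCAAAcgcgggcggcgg
Prc1, chr7:80294434-80294463, plus strand: cctctggctcggTTTGAAttccgcggggtc
Cdc20, chr4:118437344-118437373, minus strand: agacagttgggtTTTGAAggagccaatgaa
Ccnb2, chr9:70421533-70421562, minus strand: agcggcgcggtaTTTGAAtcgcggaccggg
Spc25, chr2:69206172-69206201, minus strand: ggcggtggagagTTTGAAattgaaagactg
Cdk1, chr10:69352910-69352939, minus strand: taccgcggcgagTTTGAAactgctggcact
The element began between 29 bases before the start of Ube2c and 24 bases after that of Spc25. These genes encode the ubiquitin enzyme Ube2c, the spindle midzone protein Prc1, the anaphase activator Cdc20, cyclin B2 (Ccnb2), the kinetochore protein Spc25 and the mitotic kinase Cdk1. At PN38 they measured 1.27 to 3.83 FPKM, against 24.3 to 102 FPKM in the PN3 libraries of *Celf1* +/+. Apart from Ube2c they were chosen by their promoters after their values were seen.

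Most DNA replication genes fell as well. Of 40 tested members 36 fell and 0 rose, and of the 13 named by the genotype sheet 12 fell, with medians of −3.26 by FPKM and −3.06 by TMM. Pcna, the sliding clamp of the polymerases, fell to 40.1 FPKM from 154 and 130 FPKM, and kept the highest level of the list at PN38. Rrm2, the regulated subunit of ribonucleotide reductase, fell to 1.97 FPKM from 71.0 and 55.4 FPKM, a 32.1-fold decrease and the largest of the list by TMM. Pold2, a subunit of polymerase delta, measured 13.1 FPKM at PN38 and 33.4 and 28.5 FPKM at PN3, and was not called on the TMM scale (−0.79 ± 0.18).

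Imprinted genes, which are read from the copy of 1 parent and mostly act on fetal growth, were lower at PN38 throughout the members that could be named. For 33 genes listed, 20 features were named, all of them by the sheet of decreases alone, so that their direction is fixed by the naming and their sizes are a description. By the call rule 19 fell and 1 did not pass, with medians of −2.74 by FPKM and −2.33 by TMM, and the summed FPKM was 131 at PN38 and 1713 and 2055 at PN3. H19, the maternally expressed noncoding RNA next to Igf2 (chromosome 7 of mm9 from 149761434 to 149764048, minus strand), measured 15.2 FPKM at PN38 and 648 and 803 FPKM at PN3. Igf2, the paternally expressed fetal growth factor (chromosome 7 from 149836673 to 149852721, minus strand), measured 14.6 FPKM at PN38 and 359 and 417 FPKM at PN3. The decreases were 47.8-fold and 26.7-fold in FPKM. Dlk1, a transmembrane ligand related to Delta, showed the largest, with 0.02 FPKM and 9 expected counts at PN38 against 6.49 and 11.96 FPKM at PN3. Meg3 and Rian, noncoding RNAs of the Dlk1 region of chromosome 12, were lower as well, with the 2 features listed as Meg3 at 4.24 and 3.68 FPKM at PN38 against 27.2 to 35.8 FPKM at PN3, and Rian at 4.27 FPKM against 23.4 and 27.4 FPKM.

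Igf2r and Grb10 are described with the IGF axis. Among the other imprinted members the growth regulator Plagl1 measured 2.15 FPKM at PN38 and 60.6 and 82.1 FPKM at PN3. Mest, a hydrolase-like protein of fetal mesoderm, measured 9.90 FPKM against 222 and 232 FPKM. The zinc finger gene Peg3 measured 1.17 FPKM against 16.4 and 19.8 FPKM, and the retrotransposon-derived Peg10 measured 0.28 FPKM against 2.94 and 3.17 FPKM. Slc38a4, an amino acid carrier, and Ndn, a growth suppressor of neurons, measured 7.11 and 6.42 FPKM at PN38 against 39.7 and 38.3 FPKM and against 21.9 and 27.6 FPKM. Zfp57, which protects imprints, measured 1.03 FPKM against 4.95 and 5.66 FPKM. Nnat, Zim1 and Peg12 were low at both ages, with 0.40 to 0.85 FPKM at PN38 and 1.47 to 3.82 FPKM at PN3. Igf2as, at 0.06 FPKM against 2.17 and 2.10 FPKM, overlaps Igf2 on the other strand, and without strand in the counting the fragments of the pair cannot be told apart. Asb4, a ubiquitin ligase adaptor, was the member that missed the call, at 2.52 FPKM against 6.89 and 6.71 FPKM and a TMM log2 change of −0.99.

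**Figure D4:**
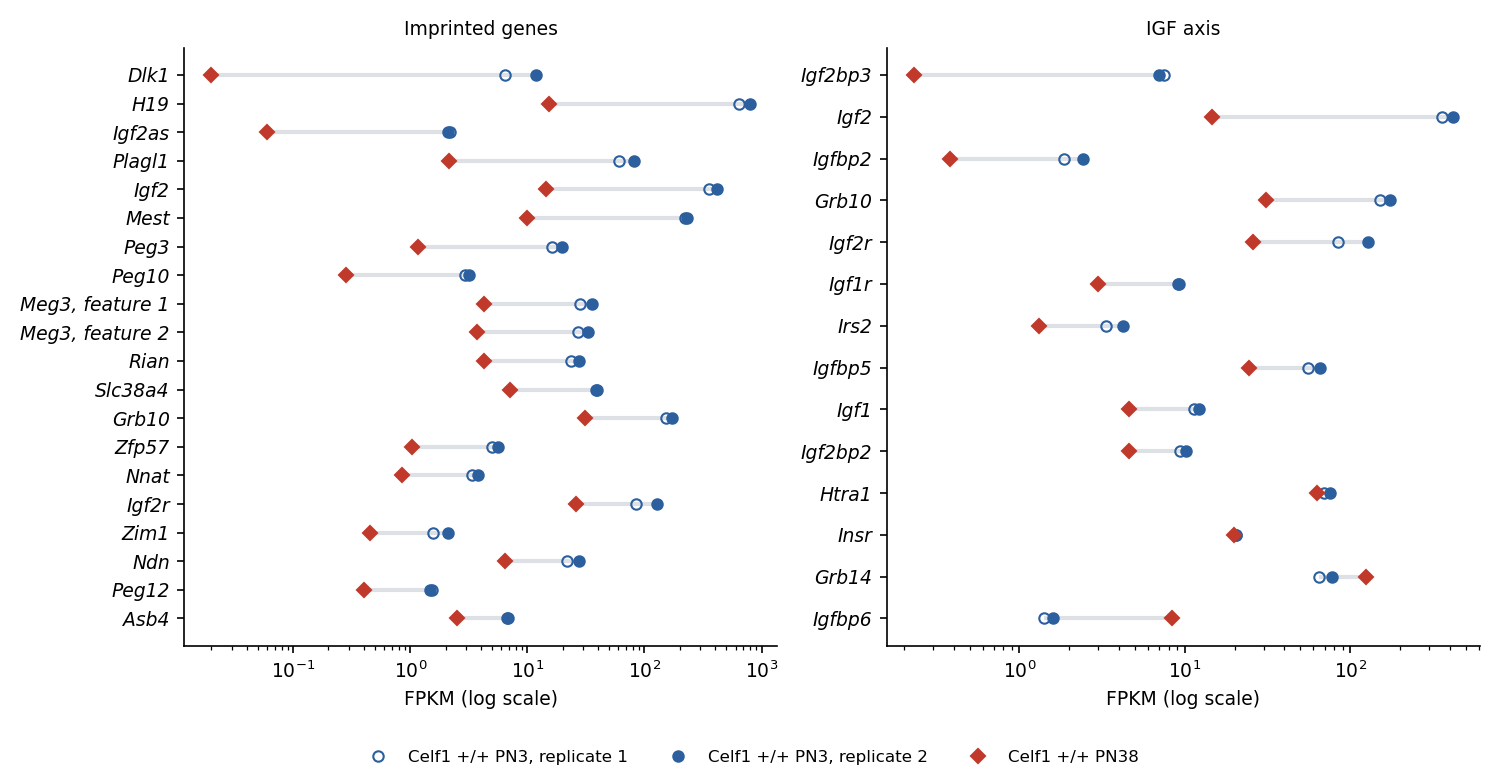
FPKM (log axis) of each tested imprinted gene and each member of the IGF axis in the 3 *Celf1* +/+ libraries, ordered by TMM log2 change, with circles for PN3 and diamonds for PN38. H19 falls from 648 and 803 to 15.2 FPKM and Igf2 from 359 and 417 to 14.6 FPKM, while Igfbp6 rises to 8.42 FPKM.

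Insulin-like growth factors signal through the receptors Igf1r and Insr, are held by binding proteins and cleared by Igf2r. Of 14 tested members of this axis 7 fell, 1 rose and 6 were not called, and of the 7 named by the genotype sheet 2 fell and 1 rose. Of the ligands, Igf2 is given above, and Igf1 measured 4.61 FPKM at PN38 and 11.4 and 12.2 FPKM at PN3 and was not called by TMM (−0.93 ± 0.12). Igf1r fell to 2.97 FPKM from 9.04 and 9.23 FPKM. The insulin receptor Insr measured 19.9 FPKM at PN38 and 20.5 and 20.3 FPKM at PN3, with a log2 change of −0.04 by FPKM and 0.38 by TMM, so that its sign turns with the scaling. Igf2r fell to 25.9 FPKM from 84.1 and 128 FPKM.

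Behind the receptors, the adaptor Grb10, itself imprinted, fell to 31.0 FPKM from 152 and 173 FPKM, whereas the related adaptor Grb14 measured 124 FPKM at PN38 and 64.6 and 77.6 FPKM at PN3. Grb14 was not called, with log2 changes of 0.81 by FPKM and 1.26 by TMM. The docking protein Irs2 fell to 1.31 FPKM from 3.36 and 4.21 FPKM. Among binding proteins Igfbp6 rose to 8.42 FPKM from 1.4 and 1.6 FPKM, and Igfbp2 fell to 0.38 FPKM from 1.87 and 2.41 FPKM. Igfbp5 measured 24.5 FPKM against 55.8 and 65.8 FPKM and was not called (TMM log2 change −0.93 ± 0.32). Htra1, a secreted protease that can cut binding proteins, measured 63.2 FPKM against 69.1 and 75.7 FPKM.

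The RNA-binding proteins that carry Igf2 mRNA differed. Igf2bp3, an oncofetal protein, fell to 0.23 FPKM from 7.48 and 6.97 FPKM, a 31.4-fold decrease (TMM log2 change −4.74 ± 0.13, adjusted p = 0.000175, edgeR). Igf2bp2 measured 4.62 FPKM at PN38 and 9.30 and 10.2 FPKM at PN3 and was not called (−0.65 ± 0.10). Celf1 itself, which the study follows, measured 28.4 FPKM at PN38 and 58.4 and 57.8 FPKM at PN3. Its change was 2.05-fold by FPKM but −0.57 ± 0.10 on the TMM log2 scale (adjusted p = 0.0049, edgeR), under 2.0-fold. In the *Celf1* −/− libraries it measured 2.61 and 3.03 FPKM, as their labels require. Its paralog Celf2 measured 9.90 FPKM at PN38 and 13.2 and 14.0 FPKM at PN3, a log2 change of −0.46 by FPKM and 0.03 by TMM.

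In the whole list of splicing factors and RNA-binding proteins the call turned on the scaling. Of 41 tested members 37 passed with the fold from FPKM and 12 with the fold from TMM, and the same 12 passed both. Their medians were −1.35 by FPKM and −0.89 by TMM. The sheet of decreases alone named 32 members, of which 10 fell, so the passes by FPKM and the medians lean to decreases by the naming. Only 9 members were named by the genotype sheet, of which 2 fell and 0 rose, with medians of −1.02 by FPKM and −0.57 by TMM. The cold-inducible protein Rbm3 fell to 47.5 FPKM from 315 and 283 FPKM. The repressive splicing factor Ptbp1 fell to 17.4 FPKM from 52.3 and 50.6 FPKM. The abundant hnRNP protein Hnrnpa1 measured 97.1 FPKM at PN38 and 243 and 250.2 FPKM at PN3, which is past 2.0-fold by FPKM but −0.90 ± 0.08 by TMM. Rbfox1, a splicing factor of adult muscle and nerve, measured 8.37 FPKM at PN38 and 6.64 and 8.96 FPKM at PN3. Of the low members Msi1, Mbnl3 and Hnrpll fell, each from 1.3 to 3.14 FPKM at PN3 to between 0.10 and 0.32 FPKM. The log2 change of Msi1 was −4.07, or −3.41 without replicate 2 of *Celf1* +/+. The other members that fell were Ddx17, Nono, Hnrnpa0, Khsrp, Fmr1 and Fubp3, with TMM log2 changes between −1.40 and −1.01.

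Most matrix genes fell, and most of them could be named only as decreases. Of 47 tested members 33 fell, 1 rose and 13 were not called, with medians of −2.03 by FPKM and −1.66 by TMM. Of the 16 named by the genotype sheet 7 fell and 1 rose, with medians of −1.01 and −0.56. Col3a1, a fibrillar collagen, fell to 127 FPKM from 535 and 631 FPKM, and elastin (Eln) fell to 58.0 FPKM from 442 and 643 FPKM. Fbn2, the fetal fibrillin, fell to 0.40 FPKM from 16.4 FPKM in both libraries. Vtn, the adhesive plasma protein vitronectin, rose to 19.8 FPKM from 7.53 and 7.37 FPKM. Among 33 matrix enzymes and inhibitors 18 fell and 5 rose, 12 of the falls in members named as decreases alone. Of the 19 named by the genotype sheet 6 fell and 5 rose, beside 30.6% and 11.4% of all genes that sheet named. Timp4, the metalloproteinase inhibitor of adult heart, rose to 44.2 FPKM from 5.61 and 7.77 FPKM, and P4ha3, a collagen prolyl hydroxylase, fell to 0.22 FPKM from 5.54 and 5.29 FPKM. The gelatinase Mmp2 measured 39.2 FPKM against 84.4 and 94.6 FPKM and was not called on the TMM scale (−0.75 ± 0.10).

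Fibroblast and epicardial markers moved unevenly beside the matrix genes. Of 12 tested markers 8 fell and 1 rose, and 6 of the 8 were named by the sheet of decreases alone. Of the 6 named by the genotype sheet 2 fell and 1 rose, with medians of −0.65 by FPKM and −0.20 by TMM, about those of all genes that sheet named. For the 12 markers together the summed FPKM was 560 at PN38 and 1028 and 1170 at PN3. Dcn, the proteoglycan decorin that marks fibroblasts, measured 377 FPKM at PN38 and 331 and 378 FPKM at PN3, and Islr and Lum were not called either, at 21.3 FPKM against 25.0 and 31.5 FPKM and at 52.5 FPKM against 88.2 and 107 FPKM. Postn, the periostin of active fibroblasts, fell to 44.8 FPKM from 466 and 519 FPKM, and Tcf21, a transcription factor of cardiac fibroblasts, fell to 9.56 FPKM from 38.1 and 41.8 FPKM. The epicardial genes Aldh1a2 and Tbx18 and the keratins Krt8 and Krt18 fell, from 1.59 to 30.5 FPKM at PN3 to between 0.17 and 4.76 FPKM. Fap also fell, to 1.55 FPKM from 4.28 and 5.22 FPKM. Pi16, a marker of adventitial fibroblasts, rose to 45.8 FPKM from 11.0 and 16.2 FPKM. The part of the number of fibroblasts in the matrix result was not tested.

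Developmental regulators were read mainly through the sheet of decreases. Of 35 transcription factors 24 fell and 0 rose, of which 4 were named by the genotype sheet and 3 of these fell. Sox4, a factor of progenitor cells and the most abundant of these 4 at PN3, fell to 8.79 FPKM from 69.2 and 87.9 FPKM. Sox11, its relative, fell to 0.01 FPKM, 9 expected counts, from 1.11 and 1.25 FPKM. Mef2a, a factor of muscle genes, measured 26.6 FPKM against 69.9 and 76.9 FPKM, and missed the call with a TMM log2 change of −0.98. Etv5 measured 4.66 FPKM against 5.02 and 4.49 FPKM, with a change of −0.03 by FPKM and 0.41 by TMM. Of 32 hedgehog and Wnt genes 27 fell, and 1 of the 32 was named by the genotype sheet. That gene, the Wnt inhibitor Wif1, measured 6.75 FPKM against 9.31 and 12.7 FPKM and was not called. The Wnt antagonist Sfrp2 fell to 2.85 FPKM from 32.9 and 38.8 FPKM, and the Wnt5a receptor Ror2 fell to 0.38 FPKM from 5.38 and 5.29 FPKM.

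Genes for DNA methylation and Polycomb repression fell in 14 of 23 cases and rose in 0, and of the 5 named by the genotype sheet 4 fell. Dnmt1, the maintenance methyltransferase, fell to 5.52 FPKM from 29.0 and 25.5 FPKM. Its partner Uhrf1 fell to 1.26 FPKM from 26.7 and 20.5 FPKM. The corepressor Trim28 fell to 21.9 FPKM from 64.0 and 66.7 FPKM. Phc1, a Polycomb subunit, measured 4.57 FPKM against 10.4 and 11.2 FPKM and was not called (TMM log2 change −0.69).

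Ion channel and calcium handling genes went both ways. Of 33 tested members 15 fell and 5 rose, and of the 21 named by the genotype sheet 4 fell and 5 rose, with medians of −0.32 by FPKM and 0.13 by TMM. Hrc, the calcium-binding protein of the sarcoplasmic reticulum, rose to 434 FPKM from 118 and 122 FPKM. Ryr2, the channel that releases calcium from it, measured 130 FPKM at PN38 and 108 and 110 FPKM at PN3 and was not called, with log2 changes of 0.25 by FPKM and 0.68 by TMM. Kcnd2, a potassium channel of the transient outward current, rose to 8.09 FPKM from 1.90 and 2.06 FPKM. Cacng6, a calcium channel gamma subunit, fell to 0.14 FPKM from 3.80 and 4.91 FPKM. The next 2 members were singled out after their values were seen because their proteins are known from the fetal heart. Cacna1g, a T-type calcium channel, fell to 5.17 FPKM from 22.5 and 28.8 FPKM, and Kcne1, the beta subunit of the slow delayed rectifier, fell to 6.73 FPKM from 91.9 and 92.4 FPKM.

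Interferon-responsive genes rose in 10 of 19 cases and fell in 3. Of the 18 named by the genotype sheet 10 rose and 2 fell, beside 11.4% and 30.6% of all genes that sheet named, with medians of 1.12 by FPKM and 1.51 by TMM. Ifi27l2a measured 118 FPKM at PN38 and 15.1 and 8.07 FPKM at PN3 (TMM log2 change 3.82 ± 0.36, adjusted p = 0.000742, edgeR), and its relative Ifi27l1 rose to 39.8 FPKM from 20.1 and 19.7 FPKM. Of 9 clock genes 1 rose, 1 fell and 7 were not called, and the 8 named by the genotype sheet held both the rise and the fall. With the fold from FPKM alone 3 of the 9 were lower and 1 was higher. Nr1d1, the repressor Rev-erb alpha, rose to 29.4 FPKM from 10.6 and 11.8 FPKM, and Per3 fell to 1.95 FPKM from 7.35 and 9.38 FPKM. Nr1d2 (15.8 FPKM against 17.0 and 19.9) and Tef (23.5 against 20.8 and 24.5) were not called. The hour of collection is not given in the sources used here, so age and time of day cannot be told apart for these genes.

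Other cell types showed in the same libraries. Of 14 endothelial markers 2 rose and 3 fell, the 3 being named by the sheet of decreases alone. Of the 11 named by the genotype sheet 2 rose and 0 fell, with medians of 0.47 by FPKM and 0.91 by TMM. For the 14 markers together the summed FPKM was 816 at PN38 and 649 and 646 at PN3. Ly6c1 rose to 250.2 FPKM from 73.8 and 78.3 FPKM and the water channel Aqp1 rose to 163 FPKM from 57.2 and 66.2 FPKM. Cldn5, the claudin of vessel walls, fell to 24.2 FPKM from 65.7 and 78.7 FPKM. Eng (70.5 against 62.4 and 59.9) and Vwf (15.3 against 8.63 and 9.93) were not called. Of 9 smooth muscle and pericyte markers 4 fell and 0 rose, 3 of the 4 named as decreases alone. Of the 5 named by the genotype sheet 1 fell, with medians of −0.06 by FPKM and 0.39 by TMM, so that the sign turns with the scaling. Tagln, an actin-binding protein of smooth muscle, measured 96.8 FPKM against 54.6 and 53.5 FPKM.

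All 6 mast cell markers fell, with a summed FPKM of 4.29 at PN38 and 21.7 and 27.4 at PN3. The sheet of decreases alone named 5 of them. All but the receptor Kit lay under 1 FPKM at PN38 and passed the filter only through PN3, which fixed their direction by FPKM. The tryptase Tpsab1, which has a near-identical neighbour in Tpsb2, measured 0.20 FPKM at PN38 and 1.36 and 4.92 FPKM at PN3, and missed the threshold without replicate 2 of *Celf1* +/+ (log2 change −2.28, against −3.46). The protease genes Cma1 and Cpa3 measured 0.61 and 0.43 FPKM at PN38 against 4.79 and 5.85 FPKM and against 3.02 and 4.10 FPKM. Of 8 genes of nerve and glia 6 fell, 5 of them named by the sheet of decreases alone, and of the 3 named by the genotype sheet 1 fell. The adhesion molecule Ncam1 fell to 2.59 FPKM from 39.6 and 41.9 FPKM, and Gap43, a protein of growing axons, fell to 0.19 FPKM from 3.88 and 3.60 FPKM, whereas Dbh, the enzyme of noradrenaline synthesis in sympathetic nerves, measured 2.98 FPKM against 1.67 and 1.88 FPKM. Ncam1 is made by fetal cardiomyocytes as well as nerve.

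Blood cell transcripts were present at both ages although blood was removed. The 7 erythroid genes summed to 6258 FPKM at PN38 and 7492 and 7224 FPKM at PN3, and 0 of the 5 named by the genotype sheet were called. The beta globin listed as Beta-s measured 3979 FPKM at PN38 and 4234 and 4073 FPKM at PN3, and Hba-a2 measured 1767 FPKM and 2330.0 and 2274 FPKM. Globin genes are near-identical copies, between which fragments may be split. Slc4a1, the anion exchanger of red cells, fell to 0.15 FPKM from 1.57 and 1.19 FPKM, and the erythropoietin receptor Epor fell to 0.55 FPKM from 1.5 and 1.49 FPKM. Its call was lost without either wild-type PN3 library, although its log2 change stayed at −1.02 and −1.06. Of 6 macrophage and lymphocyte genes 1, Irf8, fell (2.11 FPKM against 5.73 and 5.96). It was named by the sheet of decreases alone, and 0 of the 4 named by the genotype sheet were called. Of these, Cd68 measured 7.56 FPKM against 4.71 and 5.39 FPKM.

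**Figure D5:**
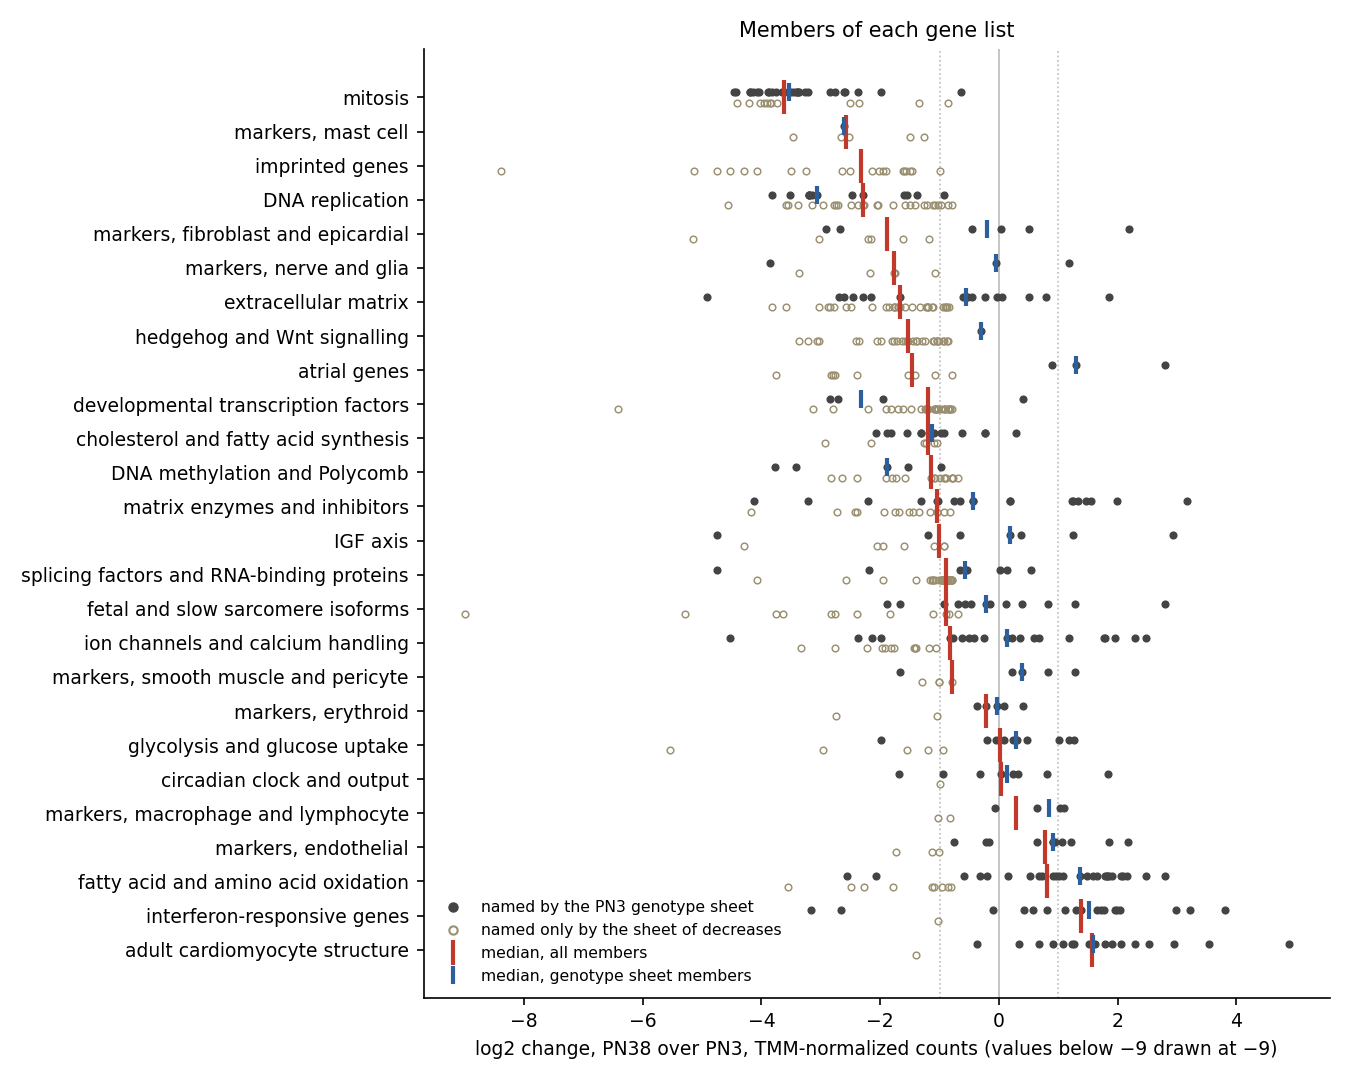
TMM log2 change (PN38 over PN3) of each tested member of 26 gene lists, with filled points for members named by the PN3 genotype sheet, open points for members named only by the sheet of decreases, and bars for the medians of all members (red) and of genotype sheet members (blue). Mitosis has the lowest median (−3.62) and adult cardiomyocyte structure the highest (1.56), and open points lie left of 0 by the way they were named.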

How the data were processed

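Per the labels and the methods of the study, polyadenylated RNA of ventricles was sequenced as paired ends of 100 cycles and assigned to mm9 transcripts. The deposited expected counts are estimates that RSEM (1.2.4) made for each numbered gene after alignment with TopHat2 (given as 2.02 in the submitters' processing notes), without normalization. RSEM splits fragments shared by near-identical genes, and the sources do not say that strand was used. The deposited FPKM values come from the same step and relate each count to transcript length and library size, and the deposited TPM values relate it to all transcripts and served only as an alternative. Columns of the authors' own comparisons were not used.

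Expected counts were rounded and tested for all genes past the filter of 1 FPKM, in the PN38 library or in each wild-type PN3 library, with edgeR (4.0.16) in R (4.3.3). The 5 libraries formed 3 groups, with TMM scaling and the quasi-likelihood test (glmQLFit, glmQLFTest), Benjamini-Hochberg adjustment over all genes tested, an adjusted p of at most 0.05 and a fold of at least 2.0. The spread comes from the 4 PN3 libraries. The fits were tested on simulated data. SE is that of the fitted log2 change. FPKM changes are ratios of PN38 to the mean of the *Celf1* +/+ PN3 libraries. With 108044284 to 139769909 counts per library, counting error was small beside the spread between libraries except for genes at low counts. Several genes described above had low counts at PN38, such as Cthrc1 with 54 and Gap43 with 23.

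Names came from exact FPKM matches, and mm9 coordinates from GENCODE vM1 for the 2470 named genes with 1 matching gene. Promoters are from RefSeq GRCm38.p6, another build than that of the counts, and were matched by symbol. The gene lists and members were chosen with earlier results of these data known. The text names, of each list, the 2 most abundant genes, the one with the lowest and the one with the highest TMM change. It may name every member of the IGF, imprinted, RNA-binding protein, atrial and cell marker lists, and the 5 largest falls and 5 largest rises among genes of at least 10 FPKM at one age. It also names 3 abundant genes whose sign turned with the scaling. Other names are marked as chosen after their values were seen. Alternatives were DESeq2 (1.42.0), edgeR's exact test and glmTreat, other scalings, filters and fold thresholds, each library left out, the wild-type libraries alone and a replicate block. TPM was added after the data were seen. A few members that the rule would name are not reported here.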

Additional observations from a re-analysis of the deposited data

How the results depend on the processing

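With library totals only, the TMM counts became 2956 genes lower and 918 higher, and 2891 genes were lower on both folds. With at least 5 FPKM there were 1900 lower and 613 higher by FPKM, 903 lower by TMM, and 901 lower and 613 higher on both. The glmTreat test against 2.0-fold gave 891 lower by FPKM, 892 lower and 948 higher by TMM and 891 lower on both. A fold threshold of 1.5 gave 1583 higher by FPKM, 2761 lower and 2814 higher by TMM, and 2760 and 1582 on both. With TPM in place of FPKM, added after the data were seen, 3883 were lower and 701 higher. The median FPKM change was −0.54 with no filter and −0.43 at 5 FPKM or more, and the median TMM change was 0.0012 with DESeq2 size factors, −0.46 with library totals only, −0.077 by upper quartile and −0.058 with no filter. Leaving out 1 PN3 library gave 2610 to 2925 genes lower and 936 to 968 higher by FPKM, 1422 to 1493 and 1570 to 1721 by TMM, 1418 to 1491 and 936 to 968 on both, and medians of −0.027 to −0.017. PN38 cannot be left out.

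Some small log2 changes turned negative by FPKM and with library totals only, which leave out the TMM factors. In that order the values were −0.0554 and −0.0513 for Acta2, −0.0619 and −0.0429 for Beta-s, −0.458 and −0.415 for Celf2, −0.0291 and −0.0283 for Etv5, −0.381 and −0.359 for Hba-a2, −0.163 and −0.158 for Hsd17b12, −0.197 and −0.249 for Htra1, −0.0369 and −0.0650 for Insr, −0.409 and −0.402 for Islr, −0.220 and −0.216 for Kcnj8, −0.156 and −0.1505 for Ldha, −0.228 and −0.208 for Nr1d2, and −0.317 and −0.308 for Snrpa1. Tef was at −0.121 with library totals only. By upper quartile Celf2 (−0.0304) and Islr (−0.0161) turned negative. Without replicate 1 and without replicate 2 of *Celf1* +/+ at PN3, in turn, the values had opposite signs for Alas2 (0.0137 and −0.0693), Apln (0.126 and −0.398), Islr (−0.103 and 0.200), Spna1 (0.342 and −0.619) and Axl (−0.147 and 0.0115). Over the named genes and alternatives, 32 values lost and 20 gained an adjusted p of at most 0.05 without a change of sign. None of the named genes called on both folds changed sign under the alternatives run. The call already required at least 2.0-fold on both scales, which left the other scalings little room to turn a sign.

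Replicate numbers are shared by the genotypes at PN3, and PN38 has none. With a replicate block over PN3 the counts were 2875 and 945 by FPKM, 1464 and 1650 by TMM and 1460 and 945 on both, within 1.5 times. The differences between replicates of the 2 genotypes correlated at 0.181 over genes, and with 2 pairs the numbers were read as names.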

Other observations

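Genes near or at silence at one age were counted apart. Of the tested genes, 28 had at least 1 FPKM in both *Celf1* +/+ libraries at PN3 and under 0.1 FPKM at PN38, 8 had 0 expected counts at PN38, and 38 went from under 0.1 FPKM at PN3 to at least 1 FPKM at PN38. Of the 831 genes that rose without a name 110 reached 100 FPKM at PN38, a smaller share than the 25 of the 108 named. Together the 831 genes held 18.4% of all counts at PN38 and 6.52% and 6.05% at PN3.

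A small group of genes, picked out after the values were seen, differed by at least 8-fold between the 2 libraries of 1 genotype at PN3. There were 24 such genes, 7 in *Celf1* +/+ and 19 in *Celf1* −/−, and 0 of them were called for age, beside 18.7% of all genes tested. The test takes its spread from these same PN3 libraries, so genes picked in this way could hardly be called. Cd1d2, a CD1 antigen-presenting protein, measured 0.41 FPKM at PN38, 3.71 and 5.2 FPKM in *Celf1* +/+ at PN3, and 0.23 and 3.14 FPKM in *Celf1* −/−. A feature known only by a cDNA clone measured 0.24 FPKM at PN38, 439 and 468 FPKM in *Celf1* +/+ at PN3, and 0.17 and 790 FPKM in *Celf1* −/−. In both genes 1 of the PN3 libraries lay at the level of PN38, so their low value at PN38 cannot be told apart from differences between mice.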
